A study of Homo sapiens with 4 samples.

Results

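The nuclear-encoded subunits of the respiratory chain were examined in HepG2, a cell line from a human hepatocellular carcinoma. Members were taken by gene symbol. A symbol counted if it was NDUF followed by A, B, C, S or V and a number (complex I), SDHA to SDHD (complex II), began with UQCR (complex III), began with COX4 to COX8 (complex IV) or began with ATP5 (complex V), and pseudogene and antisense symbols were left out. The rule matched 86 symbols, and 80 of them had at least 10 reads in any library, out of 13961 genes that did. These 80 were 37 genes of complex I, 4 of complex II, 9 of complex III, 11 of complex IV and 19 of complex V.

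The 4 conditions had 1 library each, so differences could not be checked against replicates and no test of the conditions was possible. Cells had received DMSO, or PD0332991 (written PD-0332991 in the labels), an inhibitor of the kinases CDK4 and CDK6 that is dissolved in DMSO, or had been transfected with a scrambled control siRNA, or with siRNAs to CDK4 and CDK6 together (CDK4/6 KD). All cells were grown in RPMI medium with serum, and the dose of the inhibitor and the times of exposure and transfection are not given in the sources used here. The libraries were QuantSeq libraries, which read each transcript near its 3′ end, so that counts do not grow with transcript length.

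The respiratory chain passes electrons from NADH and succinate to oxygen in the inner mitochondrial membrane. Complexes I and II feed electrons to ubiquinone, complex III hands them to cytochrome c, complex IV gives them to oxygen, and complex V, the ATP synthase, uses the proton gradient that complexes I, III and IV build. Some core subunits are made inside the mitochondrion from its own genome, and those were not analysed here. The remaining subunits are nuclear genes whose proteins are imported, and hepatocytes, which are rich in mitochondria, depend on them for ATP.

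Library totals ran from 8983848 to 11176880 reads, and the members took between 1.52% and 1.66% of the reads of a library. Levels are given as CPM, reads scaled to a common library size of 1000000 after TMM correction. A gene was called lower or higher where its fold change reached 1.5 in either direction. The 95% intervals are exact Clopper-Pearson intervals of how a gene's reads split between a pair of libraries, and cover nothing but counting error. The siRNA targets were lower in the CDK4/6 KD library (fold changes: 0.203 for CDK4 and 0.241 for CDK6). All 10 hepatocyte markers listed were counted in every library. Of 15 keratinocyte markers, 7 had at least 10 reads, their summed level over the list, most of it from KRT10 in the controls, was 71.0 CPM in DMSO, 153 in PD0332991, 61.5 in scrambled siRNA and 105 with CDK4/6 KD, and the defining marker TP63 had at most 1 read. Of the 7, 6 were at least 1.5-fold higher in PD0332991 than in DMSO, beside 16.8% of all genes tested. KRT5 had 113 reads against 2 and KRT14 had 249 against 9. In scrambled siRNA 6 of the 7 were also higher than in DMSO, beside 13.4% of all genes, with 13 reads of KRT5 and 31 of KRT14. With CDK4/6 KD 5 of 6 tested were higher than in DMSO, beside 2288 of all 13512 genes. The part of this signal in the results below was not tested. The leukocyte marker CD3E was at 0 reads throughout. The 12 proliferation markers summed to 5007 CPM in DMSO, 705 in PD0332991, 3567 in scrambled siRNA and 1566 with CDK4/6 KD, and their part in the values that follow was not tested. In bulk RNA, fewer cells of a type and less RNA per cell cannot be told apart.

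The respiratory chain genes were among the more even transcripts of these cells. Of the 69 members with a mean level of at least 50 CPM, 57 had a highest library under 1.5 times the lowest, whereas 48.9% of all 4113 genes at that level did. The median ratio of highest to lowest library was 1.27 for the members and 1.51 for all genes at that level. Members were also more abundant (median 163 CPM against 105 CPM), but within the genes of 50 to 100 CPM the share was 11 of 15 members beside 47.3% of genes. Between 100 and 200 CPM it was 22 of 28 members beside 48.8%, and from 200 CPM up it was 24 of 26 beside 52.5%. The most even member was COX7B, a small subunit of complex IV, with 191 CPM in DMSO, 186 in PD0332991, 179 in scrambled siRNA and 189 with CDK4/6 KD. The least even were SDHD of complex II (ratio of highest to lowest library: 2.80) and NDUFA10 of complex I (ratio: 2.11).

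In CDK4/6 KD, 3 of the 80 members were at least 1.5-fold lower than in scrambled siRNA and 5 were higher, where 17.4% of all genes tested were lower and 19.4% higher. As shares of the members these were 3.75% and 6.25%, both below the shares of all genes. Among the 69 members at 50 CPM or more, 2 were lower and 4 higher, with 14.9% and 9.21% of all genes at that level. After PD0332991, 3 of 80 members were lower and 2 higher than in DMSO (15.1% and 16.8% of all genes). At 50 CPM or more that was 1 lower and 1 higher of 69 (10.9% and 6.49%). The control libraries themselves differed to a like extent. In scrambled siRNA 3 of 80 members were lower and 2 higher than in DMSO (15.7% and 13.4% of all genes), or 1 lower and 2 higher of 69 (8.34% and 8.22%).

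Intervals that left out 1 were common among the members and among all genes of at least 50 CPM. In CDK4/6 KD the interval lay under 1 for 17 of the 69 members (24.6%) and above 1 for 28 (40.6%). The shares of all genes at that level were 46.2% and 32.6%. After PD0332991 it lay under 1 for 21 members (30.4%) and above 1 for 28 (40.6%), beside 40.4% and 35% of genes. Both intervals lay under 1 for 6 members (23.5% of genes), which were ATP5E, ATP5G1, ATP5G3, NDUFA12, NDUFS6 and UQCRC2. Both lay above 1 for 9 members (15.6% of genes), which were ATP5H, COX5B, COX6C, COX7A2L, NDUFA11, NDUFA8, NDUFB5, NDUFS8 and UQCR11. They lay on opposite sides of 1 for 17 members (21.7% of genes). Across the 80 members the log2 fold changes of the knockdown and of the drug had a Spearman correlation of -0.00459. It was 0.296 across the 4113 genes at 50 CPM or more and 0.266 across all 13099 genes tested in both arms. The members also spanned less, with an interquartile range of log2 fold changes of 0.39 in the knockdown (all genes: 0.84). The knockdown and drug comparisons share no library, but every member's value in a comparison comes from the same library pair, so that the coefficient is a description.

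Summed over whole complexes, the folds furthest from 1 were those of complex II in both arms and of complex IV after PD0332991. The fold of the summed reads of all members was 1.01 in CDK4/6 KD (95% interval 0.999 to 1.01) and 1.04 after PD0332991 (interval 1.03 to 1.04). Complex I had a summed fold of 1.04 in CDK4/6 KD and 1.02 after PD0332991, and complex III had 1.04 in both. Complex IV had 1.02 in CDK4/6 KD and 1.14 after PD0332991, whereas complex V had 0.942 and 1.01. The counting interval left out 1 for every complex in both arms, except for complex V after PD0332991 (0.998 to 1.02). Complex II, the smallest set, had 1.30 in CDK4/6 KD (interval 1.24 to 1.36) and 0.854 after PD0332991 (interval 0.811 to 0.899). Its summed level was 349 CPM in DMSO, 298 in PD0332991, 295 in scrambled siRNA and 382 with CDK4/6 KD. The complex II reads were thus fewer in scrambled siRNA than in DMSO (fold: 0.843), and against DMSO the fold in CDK4/6 KD was 1.09. Scaling by total counts alone multiplies each knockdown fold by 1.075. On that scale the summed fold of complex V was 1.01 and that of all members 1.08, and 14 members between 0.930 and 1 lay above 1.

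**Figure D1:**
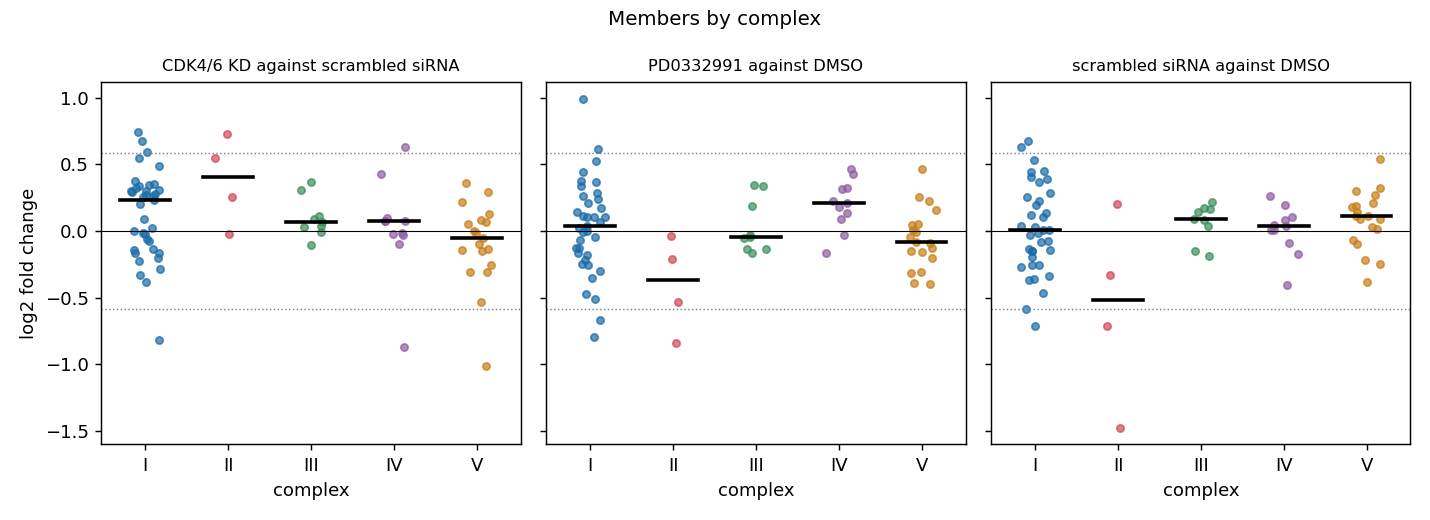
Log2 fold change (vertical axis) of each of the 80 members, grouped by complex, in CDK4/6 KD against scrambled siRNA, PD0332991 against DMSO and scrambled siRNA against DMSO. Points are genes, black bars are medians and dotted lines mark 1.5-fold. The complex II median lies at 0.40 in CDK4/6 KD, -0.37 after PD0332991 and -0.52 between the controls, while those of complexes III and V run from -0.08 to 0.11 over the panels.

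Complex I oxidises NADH. Its 7 nuclear core subunits carry the flavin and the iron-sulfur clusters, and 30 accessory genes surround them. In CDK4/6 KD, 14 of 37 complex I genes had a fold change under 1 and 23 above 1. Of all 13617 genes tested, 6843 were under 1 and 6774 above. The complex I median log2 fold change was 0.23 (all genes: -0.00). Against DMSO this median was 0.08, and with the GC trend removed it was 0.09. The accessory genes had a median of 0.26, or 0.08 against DMSO, and the core genes one of -0.08, or 0.03 with total counts alone and 0.45 against DMSO. After PD0332991 the accessory genes had a median of -0.00 and the core genes one of 0.38. Of the 7 core genes, 6 were above 1 there, beside 6936 of all 13443 genes tested. The core genes were also higher in scrambled siRNA than in DMSO (median 0.40, 6 of 7 above 1, beside 6740 of all 13303 genes). Those last 2 comparisons share the DMSO library.

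NDUFS7 and NDUFS8 are the core subunits whose iron-sulfur clusters deliver electrons to ubiquinone, and they were the members called higher after PD0332991. NDUFS7 (chromosome 19, 1383527 to 1395589, plus strand, GRCh38) had 22.3 CPM in DMSO, 44.5 in PD0332991, 29.5 in scrambled siRNA and 37.5 with CDK4/6 KD. DMSO was the lowest library and PD0332991 the highest (fold change: 1.99, interval 1.68 to 2.37). In GENCODE 29 the 3′ end of NDUFS7 overlaps a gene on the other strand, and whether counting used the strand is not given in the sources used here. NDUFS8 (chromosome 11, 68030617 to 68036644, plus strand) had 65.0 CPM in DMSO, 99.8 in PD0332991, 69.8 in scrambled siRNA and 88.96 with CDK4/6 KD. Both controls were under both CDK4/6-directed libraries, and the fold change was 1.54 after PD0332991 (interval 1.38 to 1.71) and 1.27 with the knockdown (interval 1.16 to 1.40). With the trend over GC content of the 3′ end removed, the fold changes of NDUFS8 were 1.33 and 1.15, so that it was no longer called higher after PD0332991, and that of NDUFS7 in CDK4/6 KD was 1.05 in place of 1.27.

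The core genes NDUFV1 and NDUFV2 differed more between the controls than in either arm. NDUFV1, which binds the flavin that accepts electrons from NADH, had 58.1 CPM in DMSO, 83.6 in PD0332991, 89.8 in scrambled siRNA and 85.3 with CDK4/6 KD. Only DMSO stood apart, and the fold change was 1.44 after PD0332991 and 0.949 with CDK4/6 KD. NDUFV2, an iron-sulfur subunit beside the flavin, had a fold change of 0.868 in CDK4/6 KD, 1.02 after PD0332991 and 1.45 between the controls. NDUFS3 stayed between 0.892 and 1.10 in the 3 comparisons. NDUFS1, the largest core subunit, was the core gene under 1 in both arms, with fold changes of 0.784 after PD0332991 (interval 0.694 to 0.885) and 0.958 with CDK4/6 KD, where the interval included 1.

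**Figure D2:**
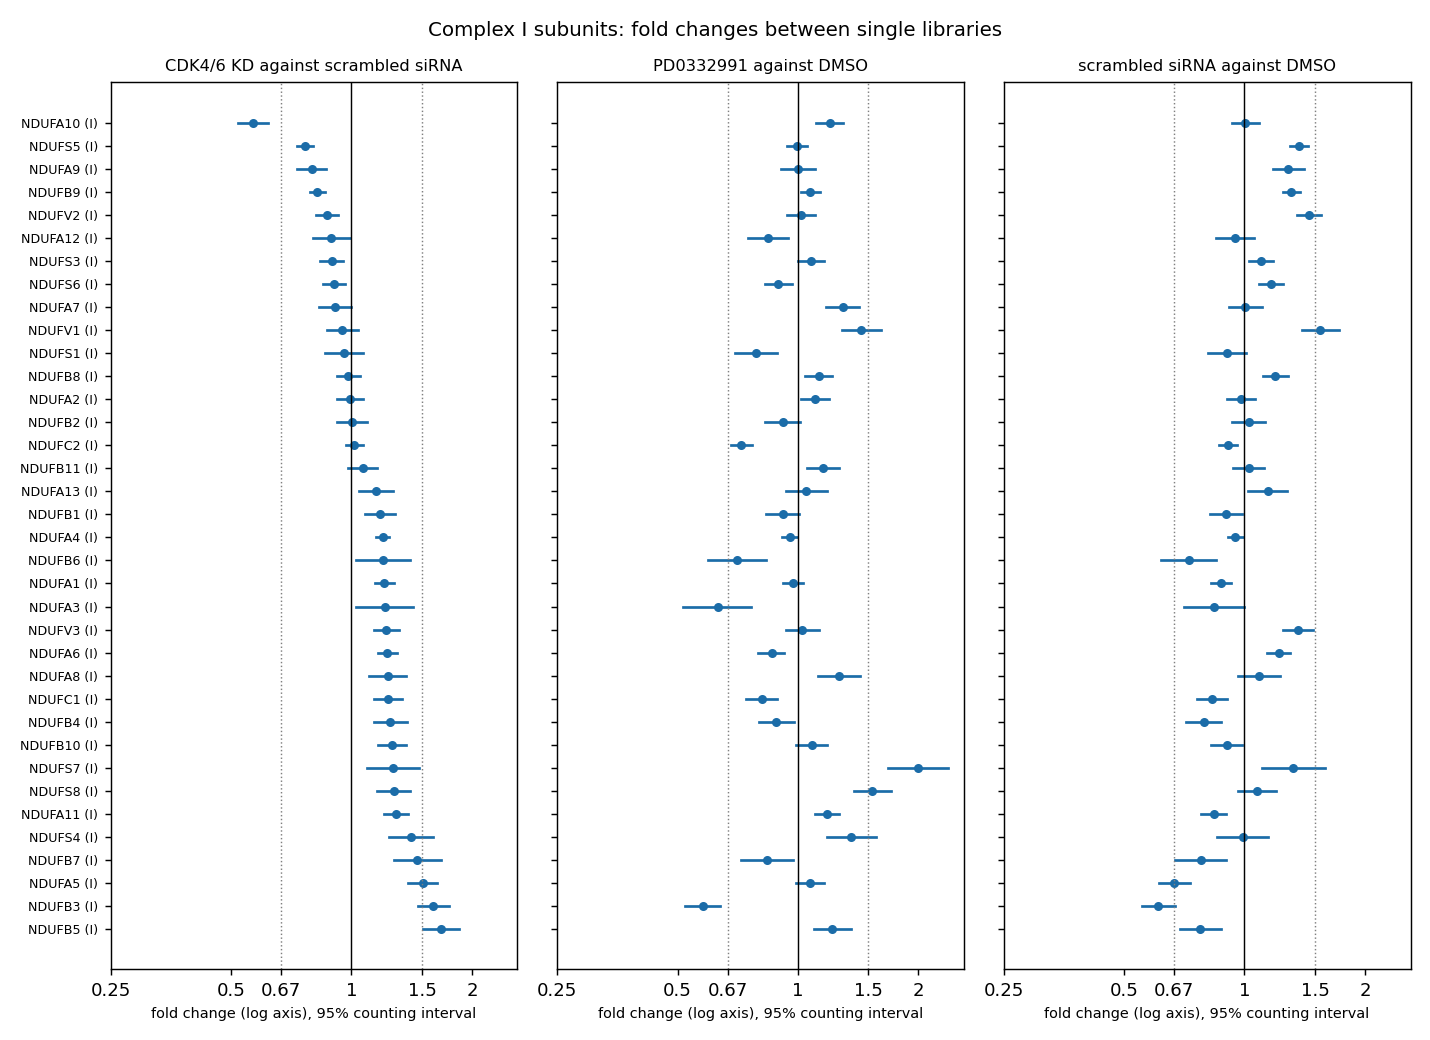
Fold changes of 36 of the 37 complex I genes (log axis) with 95% counting intervals, in order of CDK4/6 KD against scrambled siRNA, for 3 comparisons of single libraries. Dotted lines mark 1.5-fold. NDUFA10 stands alone at 0.567 in the knockdown, and NDUFB3 and NDUFA5, near the bottom, lie at 0.609 and 0.668 between the controls.

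Of the accessory genes, NDUFA10 had the lowest knockdown value. It encodes a matrix-facing accessory subunit related to nucleoside kinases, and it lies on chromosome 2 (239892450 to 240025402, minus strand). Its level was 129 CPM in DMSO, 155 in PD0332991, 130 in scrambled siRNA and 73.8 with CDK4/6 KD. The knockdown library was below the other libraries, so that the fold change was 0.567 against scrambled siRNA (interval 0.520 to 0.618) and 0.570 against DMSO. After PD0332991 the fold change was 1.20 (interval 1.11 to 1.30).

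NDUFB3, NDUFB5 and NDUFA5 were called higher in CDK4/6 KD, and for each of them scrambled siRNA was below DMSO. NDUFB3, an accessory subunit of the membrane arm (chromosome 2, 201071433 to 201085750, plus strand), had 120 CPM in DMSO, 69.0 in PD0332991, 72.8 in scrambled siRNA and 117 with CDK4/6 KD. The libraries formed a high pair, DMSO and CDK4/6 KD, and a low pair, PD0332991 and scrambled siRNA. The fold change was 1.60 in CDK4/6 KD (interval 1.46 to 1.75), 0.577 after PD0332991 (interval 0.522 to 0.637) and 0.975 for CDK4/6 KD against DMSO. NDUFA5 had 127 CPM in DMSO, 136 in PD0332991, 84.9 in scrambled siRNA and 128 with CDK4/6 KD, where scrambled siRNA alone was low (fold change in CDK4/6 KD: 1.51, or 1.01 against DMSO). With the GC trend removed it was 1.47, so that the call of NDUFA5 was lost. It has 12 pseudogenes by name in GENCODE 29, more than most members, and reads could be split with them. NDUFB5, also of the membrane arm, had 67.1 CPM in DMSO, 81.8 in PD0332991, 52.1 in scrambled siRNA and 87.0 with CDK4/6 KD. Both CDK4/6-directed libraries were above both controls, and the fold change was 1.67 in the knockdown (interval 1.51 to 1.86), 1.22 after PD0332991 (interval 1.09 to 1.36) and 1.30 for CDK4/6 KD against DMSO. NDUFA3 was called lower after PD0332991, on fewer reads, with 29.9 CPM in DMSO, 18.8 in PD0332991, 25.0 in scrambled siRNA and 30.3 with CDK4/6 KD (fold change: 0.629, interval 0.516 to 0.764).

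Complex II is succinate dehydrogenase, an enzyme of the TCA cycle as well as of the chain, and all of its subunits are nuclear. SDHA and SDHB form the catalytic part and SDHC and SDHD anchor it in the membrane. SDHA, the flavoprotein, had 97.0 CPM in DMSO, 94.6 in PD0332991, 111.9 in scrambled siRNA and 110.1 with CDK4/6 KD, and its interval included 1 in both arms. SDHB, the iron-sulfur subunit, had 47.9, 33.2, 29.3 and 48.6 CPM in the same order, so that DMSO and CDK4/6 KD were alike and the other libraries lower. SDHC had 184, 159, 146 and 214 CPM, with a fold change of 1.47 in CDK4/6 KD (interval 1.37 to 1.56) and 0.866 after PD0332991 (interval 0.807 to 0.930). SDHD (chromosome 11, 112086773 to 112120013, plus strand) had 20.9, 11.6, 7.48 and 8.92 CPM, from 191, 106, 80 and 101 reads. DMSO was the highest library of SDHD and scrambled siRNA the lowest, with PD0332991 1.55-fold above scrambled siRNA. Its fold change was 0.558 after PD0332991 (interval 0.435 to 0.710) and 0.359 in scrambled siRNA against DMSO (interval 0.272 to 0.467). In CDK4/6 KD against scrambled siRNA it was 1.19 with an interval that included 1 (0.881 to 1.62), while against DMSO it was 0.428. GENCODE 29 names 3 pseudogenes of SDHD.

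**Figure D3:**
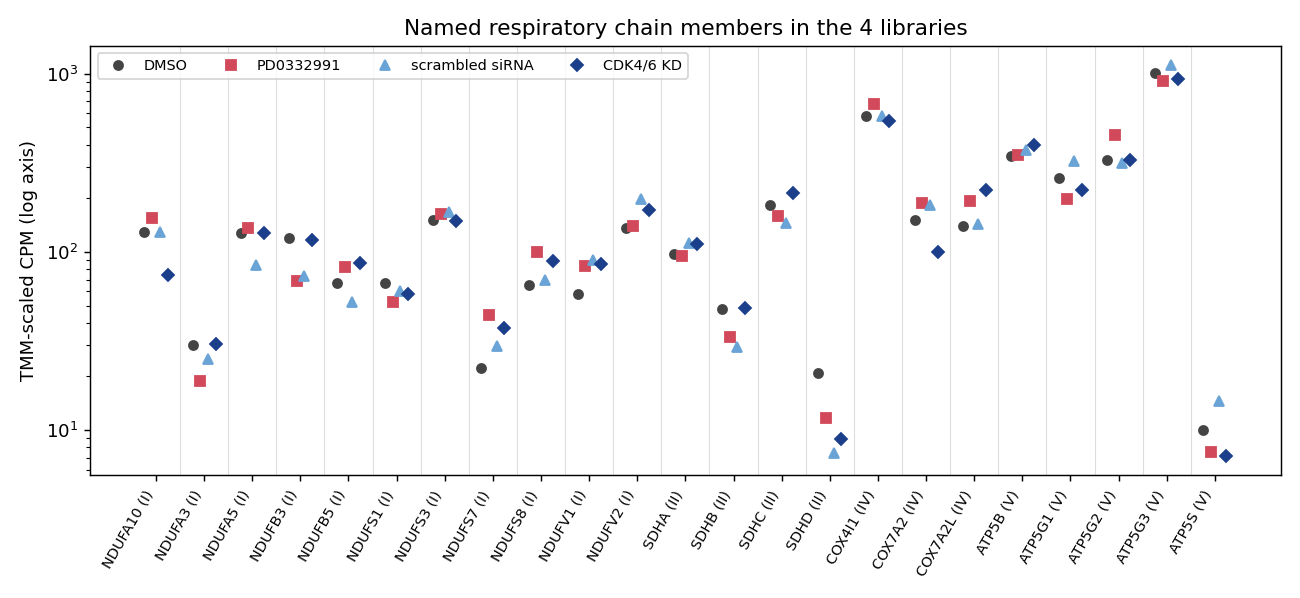
TMM-scaled CPM (log axis) of 23 named members in the 4 libraries, with the complex in parentheses. Each marker is 1 library, so there are no error bars. For NDUFB3 and SDHB the DMSO and CDK4/6 KD markers lie together above those of PD0332991 and scrambled siRNA, for SDHD the DMSO marker is highest at 20.9 CPM, and for NDUFA10 and COX7A2 the CDK4/6 KD marker is lowest at 73.8 and 100 CPM.

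Among members of at least 50 CPM, the median ratio of highest to lowest library was 1.21 for complex III and between 1.23 and 1.32 for the other complexes. The 1.32 is that of complex II and rests on 2 genes, without SDHB (ratio: 1.66) and SDHD (ratio: 2.80), which were under 50 CPM. None of the 9 complex III members was called in either arm (CYC1, whose symbol the rule does not match, is given with the genes outside it), and the fold changes in CDK4/6 KD had a median log2 value of 0.06 with an interquartile range of 0.08 (all genes: 0.84). UQCRFS1, the Rieske iron-sulfur protein and the catalytic nuclear subunit of the set, had 87.8 CPM in DMSO, 84.8 in PD0332991, 93.1 in scrambled siRNA and 120 with CDK4/6 KD. CDK4/6 KD was its highest library (fold change: 1.29, interval 1.19 to 1.41). The core-wall proteins UQCRC1 and UQCRC2 went different ways after PD0332991, with fold changes of 1.27 (interval 1.17 to 1.37) and 0.891 (interval 0.845 to 0.94). UQCRH, the hinge protein, had a level of 290 to 322 CPM in the 4 libraries, and UQCRHL, its near-identical copy elsewhere in the genome, 40.9 to 50.7 CPM. Reads may be split between that pair, so the level of each is uncertain.

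Complex IV, cytochrome c oxidase, was the set that stood higher after PD0332991, although no member of it was called. Of its 11 counted genes, 9 had a fold change above 1, beside 6936 of all 13443 genes tested. The interval lay above 1 for 8 of the 11 and under 1 for 1, beside 35% and 40.4% of genes of at least 50 CPM. The median log2 fold change was 0.21, next to 0.02 for all genes and -0.03 for genes of at least 50 CPM, and ran from 0.17 with the GC trend removed to 0.23 with total counts alone. COX5B, a zinc-binding subunit, had 263 CPM in DMSO, 355 in PD0332991, 302 in scrambled siRNA and 319 with CDK4/6 KD (fold change after PD0332991: 1.35, interval 1.28 to 1.42). COX4I1, the regulatory subunit that binds ATP, had 578, 675, 581 and 543 CPM in the same order (fold changes: 1.17 after PD0332991 and 0.935 in the knockdown, or 1.01 there with total counts alone). COX8A was the exception with an interval under 1 (fold change: 0.894, interval 0.849 to 0.942).

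Isoforms and relatives of subunit 7a differed most within complex IV. COX7A2 (chromosome 6, 75237675 to 75250323, minus strand), the isoform of non-muscle tissues, had 152 CPM in DMSO, 189 in PD0332991, 182 in scrambled siRNA and 100 with CDK4/6 KD. The knockdown library was lowest, with fold changes of 0.548 against scrambled siRNA (interval 0.509 to 0.590) and 0.659 against DMSO, whereas the fold change after PD0332991 was 1.24. COX7A2L, a relative that joins complexes III and IV into supercomplexes, had 139 CPM in DMSO, 192 in PD0332991, 144 in scrambled siRNA and 222 with CDK4/6 KD. Both controls were below both CDK4/6-directed libraries, with a knockdown fold change of 1.55 (interval 1.45 to 1.65), or 1.60 against DMSO, and one of 1.38 after PD0332991 (interval 1.28 to 1.48). The muscle isoform COX7A1 had at most 2 reads. It was 1 of 6 matched genes under 10 reads in every library, all of them tissue-restricted forms of complex IV subunits (COX4I2, COX6A2, COX6B2, COX7A1, COX7B2 and COX8C). COX4I2 had 3 reads in PD0332991 and 0 elsewhere, and COX6A2, COX7B2 and COX8C had 0 in all libraries, where a count of 0 allows up to 3 reads, or 0.265 to 0.330 CPM. The ubiquitous partners COX6A1, COX6B1 and COX8A had 145 to 358 CPM.

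**Figure D4:**
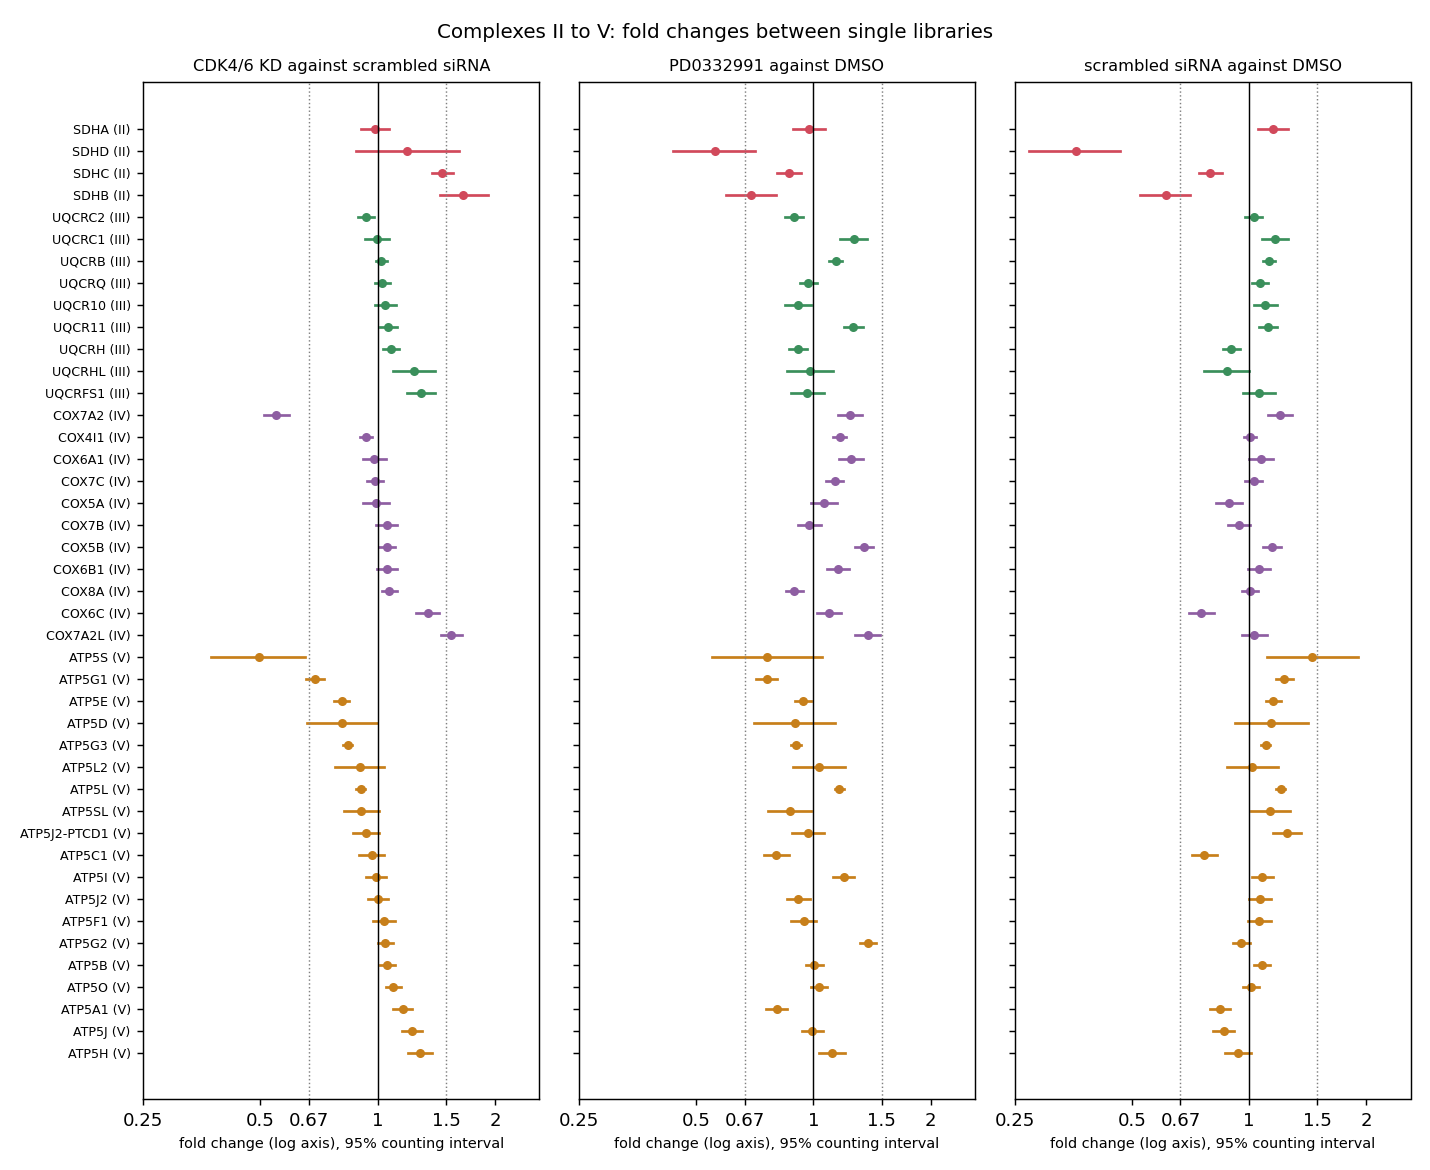
Fold changes of the 43 genes of complexes II to V (log axis) with 95% counting intervals, within each complex in order of CDK4/6 KD against scrambled siRNA. Dotted lines mark 1.5-fold. COX7A2 (0.548) and COX7A2L (1.55) bound complex IV in the knockdown, the complex III points lie close to 1, and ATP5S at the top of complex V (0.496) has the widest interval in that complex.

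Complex V turns a rotor of c subunits in the membrane against a fixed head, F1, that makes ATP. In CDK4/6 KD, 4 of 4 genes of the peripheral stalk (ATP5F1, ATP5H, ATP5J and ATP5O) had fold changes above 1, beside 6774 of all 13617 genes tested. The stalk genes had a median log2 value of 0.21, whereas the 3 c ring genes, 1 of them above 1, had a median of -0.26. Against DMSO these medians were 0.15 and -0.11. ATP5G1, ATP5G2 and ATP5G3 encode the same mature c subunit from different genes. ATP5G1 (chromosome 17, 48892765 to 48895871, plus strand) had 261 CPM in DMSO, 199 in PD0332991, 323 in scrambled siRNA and 223 with CDK4/6 KD. Both CDK4/6-directed libraries were below both controls (fold change: 0.690 in the knockdown, interval 0.655 to 0.727, and 0.760 after the drug, interval 0.714 to 0.808). ATP5G2 had 329, 454, 314 and 329 CPM in the same order, and was higher in PD0332991 alone (fold change: 1.38, interval 1.32 to 1.45). ATP5G3, with ATP5L the most counted member, had 1008, 909, 1113 and 931 CPM and fold changes of 0.837 in the knockdown and 0.902 after PD0332991. ATP5G1 has 7 pseudogenes by name.

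None of the 5 genes of the F1 head was called. ATP5B, the subunit that holds the catalytic sites, had 346, 349, 375 and 397 CPM, with fold changes of 1.06 in the knockdown and 1.01 after PD0332991. ATP5A1 was at 0.806 after PD0332991 and 1.16 with CDK4/6 KD. ATP5C1, the central shaft, was at 0.804 after PD0332991 (interval 0.746 to 0.866) and 0.965 in the knockdown. ATP5E and ATP5D, at the foot of that shaft, had knockdown fold changes of 0.808 (interval 0.774 to 0.843) and 0.810 (interval 0.657 to 0.997). The only gene of the complex V set that was called was ATP5S, or coupling factor B, which is no subunit of the enzyme itself. It had 91 reads in DMSO, 69 in PD0332991, 155 in scrambled siRNA and 81 with CDK4/6 KD (fold change in CDK4/6 KD: 0.496, interval 0.373 to 0.650, or 0.720 against DMSO). The other matched symbols that are no separate subunit were ATP5SL, ATP5L2, UQCRHL and the readthrough gene ATP5J2-PTCD1, which shares sequence with ATP5J2. NDUFA4 carries a complex I symbol but is now regarded as a complex IV protein, and its fold changes were 1.20 in the knockdown and 0.954 after PD0332991.

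Promoters of these genes are known to carry sites for NRF1 and for the ETS factor GABP, which are held to coordinate the set. RefSeq promoters (GRCh38.p14) were matched for 64 of the 80 members, and the 250 bases before the start were searched on both strands. Each member had 1 promoter, whereas the 14617 promoters of counted genes include more than 1 for some genes. The shares below are thus of unlike units. The NRF1 core (GCGCA, any base, then GCGC) was in 20.3% of member promoters, beside 8.65% of the promoters of counted genes and 5.07% of all promoters. The ETS core CCGGAAG was in 25.0% (13.7% and 8.52%), a YY1 core AANATGGC in 9.38% (4.1% and 3.86%) and the SP1 box GGGCGG in 57.8% (61.8% and 42.6%). A match is a description of the letters, not evidence of a bound site. The stretches below, clear of annotated exons, belong to 3 members with intervals above 1 in both arms (NDUFS8, COX5B and UQCR11), to ATP5G1, under 1 in both, and to NDUFA10, the lowest complex I gene of the knockdown. Capitals mark matches to the NRF1, ETS or YY1 cores. They lie at chr11:68030467-68030616 (plus), chr2:97645890-97646039 (plus), chr19:1605491-1605640 (minus), chr17:48892678-48892764 (plus) and chr2:240025403-240025552 (minus).
NDUFS8: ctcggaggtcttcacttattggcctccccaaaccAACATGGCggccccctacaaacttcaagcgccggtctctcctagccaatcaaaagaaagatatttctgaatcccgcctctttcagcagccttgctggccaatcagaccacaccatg
COX5B: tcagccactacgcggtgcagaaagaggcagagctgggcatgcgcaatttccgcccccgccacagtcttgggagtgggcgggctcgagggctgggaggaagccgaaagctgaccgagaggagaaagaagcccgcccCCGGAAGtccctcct
UQCR11: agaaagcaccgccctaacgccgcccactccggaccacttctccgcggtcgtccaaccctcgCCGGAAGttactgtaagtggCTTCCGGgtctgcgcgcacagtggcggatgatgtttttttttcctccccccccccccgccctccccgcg
ATP5G1: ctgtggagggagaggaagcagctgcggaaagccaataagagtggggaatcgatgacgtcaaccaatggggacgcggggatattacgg
NDUFA10: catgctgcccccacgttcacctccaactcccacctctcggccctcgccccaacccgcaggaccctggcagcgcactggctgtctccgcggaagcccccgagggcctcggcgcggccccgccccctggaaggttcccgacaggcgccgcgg
The NDUFS8 stretch held 1 YY1 match and that of COX5B 1 ETS match. UQCR11 held a pair of ETS matches on opposite strands, and the stretches of ATP5G1 and NDUFA10 held none. Stretches not printed were mixed. Of genes above 1 in both arms, ATP5H and COX7A2L held a match and NDUFA8 held none. Of genes under 1 in both, NDUFA12 held an NRF1 match, and ATP5E and NDUFS6 held none. No relation of matches to fold changes was tested.

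Assembly factors are not part of the finished enzyme but insert its cofactors and join its modules. Of 50 assembly genes listed (16 for complex I, 4 for complex II, 6 for complex III, 21 for complex IV and 3 for complex V), 6 were called lower in CDK4/6 KD and 2 higher, and after PD0332991 8 were lower and 1 higher. These counts stand beside 17.4% lower and 19.4% higher of all genes in the knockdown and 15.1% and 16.8% after the drug. Against DMSO 2 were lower and 3 higher in CDK4/6 KD, beside 2352 and 2288 of all 13512 genes tested. Between the controls 1 was lower and 4 higher, beside 15.7% and 13.4% of all genes. Lower in CDK4/6 KD against scrambled siRNA were NUBPL (fold change: 0.541), which loads iron-sulfur clusters into complex I, and BCS1L (0.498), which inserts the Rieske protein UQCRFS1. So were UQCC3 (0.644) for complex III, and COX20 (0.486), COX10 (0.551) and SCO1 (0.633) for complex IV. SURF1 (1.84) and ATPAF2 (1.65) were higher. After PD0332991 the lower genes were TMEM126B (0.613), COA1 (0.655) and NDUFAF5 (0.661) for complex I, SDHAF3 (0.395) for complex II, UQCC2 (0.646) for complex III, and COX17 (0.600), COA7 (0.655) and COX20 (0.664) for complex IV.

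SURF1 and COX20 were the assembly genes called in the same direction in both arms. SURF1, which helps to insert heme into complex IV, had 17.8 CPM in DMSO, 32.6 in PD0332991, 15.2 in scrambled siRNA and 28.0 with CDK4/6 KD. Both controls lay below both CDK4/6-directed libraries (fold change: 1.84 in the knockdown, interval 1.52 to 2.23, and 1.83 after the drug, interval 1.51 to 2.23). COX20, a chaperone of the complex IV subunit COX2, had 160 CPM in DMSO, 106 in PD0332991, 232 in scrambled siRNA and 113 with CDK4/6 KD. Both CDK4/6-directed libraries lay below both controls, with fold changes of 0.486 (interval 0.454 to 0.520) and 0.664 (interval 0.611 to 0.720). Between the controls the fold change of COX20 was 1.45. Against DMSO it was 0.705 in CDK4/6 KD, which is short of a call. Of 7 subunits and carriers whose symbols fall outside the rule, 1 was lower and 0 higher in CDK4/6 KD (17.4% and 19.4% of all genes). The lower gene was CYC1, the cytochrome of complex III (fold change: 0.618). After PD0332991 1 was lower and 1 higher (15.1% and 16.8% of all genes). CYCS, cytochrome c itself, was the lower (0.620). NDUFA4L2 was the higher (1.92), and its fold change between the controls was 1.33.

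**Figure D5:**
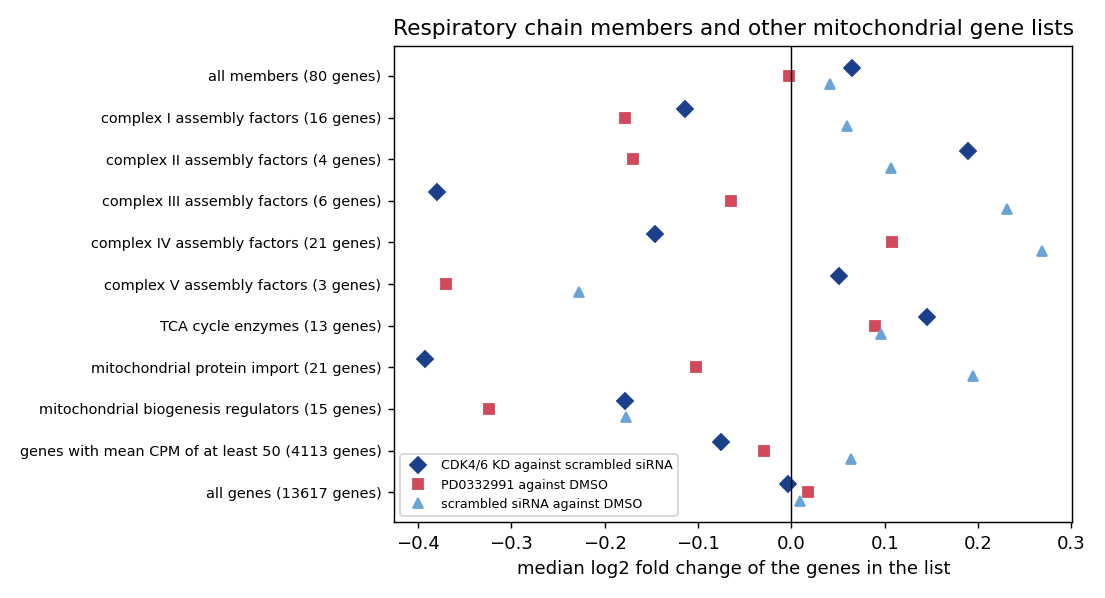
Median log2 fold change (horizontal axis) of the members and of other mitochondrial gene lists in the 3 comparisons, with the number of genes tested in CDK4/6 KD against scrambled siRNA. The 80 members lie between -0.00 and 0.07, whereas the 21 protein import genes lie at -0.39 in the knockdown and the 15 biogenesis regulators at -0.32 after PD0332991.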

How the data were processed

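For each of 4 libraries, 1 per condition, the authors deposited unnormalized counts of reads by gene symbol, made from total RNA with a QuantSeq 3′ kit. The submitters' processing notes name Bowtie2, edgeR and the build hg19, with no role or order. The read counter and the annotation are not given in the sources used here. Each table listed 25737 entries, and the counts of 286 repeated symbols were summed, which left 24462 symbols. Library sizes were scaled with TMM factors (edgeR 4.0.16, R 4.3.3). A fold change was taken where either library held 10 reads or more, after 0.5 reads in proportion to the library had been added to both, with 95% Clopper-Pearson intervals (scipy 1.17.1). For want of replicates no quasi-likelihood test was run and no p-value was computed. A count of 0 was read as up to 3 reads. No molecular identifiers are named, so PCR copies are not accounted for. The calculations were tested on simulated data.

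The members, the lists and the rules were chosen with earlier results of these data known. The genes named were members at least 1.5-fold changed whose interval left out 1, the 3 firmest per direction and comparison, all SDH genes, core subunits, paralogs, the 5 most counted members and the called genes of the pathway lists. Single genes were added to describe a complex (COX7B, COX5B, UQCRFS1, UQCRC1, UQCRC2, ATP5A1, ATP5C1, ATP5D, ATP5E and NDUFA4) or to give the keratinocyte signal (KRT5, KRT10 and KRT14) after their values were seen. The values of 1 complex I gene are not reported here, although it is counted in the totals and medians.

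Alternatives were DESeq2 1.42.0 size factors, total counts, a pseudocount of 5, no filter beyond 1 read or a filter of 50 reads, only the top entry of each repeated symbol, the other arm's control, a 2-fold threshold, whole intervals past 1.5-fold and NDUFA4 under complex IV. Removing the trend over GC content of the last 500 transcript bases (lowess span 0.3, statsmodels 0.14.6) and keeping only separate subunits were chosen after seeing the data. Positions, pseudogenes and overlaps come from GENCODE 29 on GRCh38, matched by symbol, while the counts were made on hg19.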

Additional observations from a re-analysis of the deposited data

Results flagged for a closer look

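NDUFB3, an accessory subunit of complex I, lay on opposite sides in the knockdown and the drug arm. Its fold change was 1.60 in CDK4/6 KD against scrambled siRNA and 0.577 in PD0332991 against DMSO, with 1 library behind each level. The difference between the arms was not tested. The fold change of CDK4/6 KD against DMSO was 0.975.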

How the results depend on the processing

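With 1 library per condition, leaving out a library gives no value, and no limit other than counting error could be measured. No paired analysis was possible because the labels carry no replicate numbers and each condition has 1 library. Of the complex medians, counts of members called and summed values, 203 alternative values were within their limits, 22 moved and 1 turned, and of the fold changes of named genes 373, 55 and 2 did. Scaling by total counts alone shifted the median of all genes in CDK4/6 KD by 0.10 on the log2 scale and the share of calls that were higher from 52.7% to 61.9% (from 46.0% to 38.8% between the controls). It gave 8 members higher in CDK4/6 KD, a member median of 0.17, medians of 0.17 for complex III and 0.18 for complex IV, and 1 member higher between the controls. Against the control library of the other arm, 3 members were higher in CDK4/6 KD, with medians of 0.10 for complex II and 0.20 for complex III, and NDUFB3 was at 0.975. In PD0332991 that choice gave 4 members higher, a complex II median of 0.15 and 1.55 for SDHD, both turned in direction. At 2-fold, 1 member was lower and 0 higher in CDK4/6 KD, 0 lower and 0 higher after PD0332991, and 1 lower and 0 higher between the controls. With calls that needed the full interval beyond 1.5-fold, 1 member was higher in CDK4/6 KD, 1 lower and 1 higher after PD0332991, and 1 lower and 1 higher between the controls. With the GC trend removed, 1 member was higher after PD0332991 and 1 between the controls. The cause of these changes was not tested, except that stricter thresholds call fewer genes by construction.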

Other observations

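Proteins of the chain enter mitochondria through translocases of both membranes. Of 21 mitochondrial protein import genes, 6 were at least 1.5-fold lower in CDK4/6 KD and 0 higher, with a median log2 fold change of -0.39 beside 0.07 for the 80 respiratory chain genes. Of all genes, 17.4% were lower and 19.4% higher there. Against DMSO 4 import genes were lower, beside 2352 of all 13512 genes tested, with an import median of -0.26. Between the controls the import median was 0.19. No test was run on either list. TOMM22, a receptor of the outer membrane, had 217 CPM in DMSO, 203 in PD0332991, 205 in scrambled siRNA and 37.5 with CDK4/6 KD (fold change: 0.183, 95% counting interval 0.164 to 0.203). The knockdown library alone was low. GRPEL1 (fold change: 0.465), TIMM23 (0.537), TIMM17B (0.571), TIMM13 (0.610) and TOMM40 (0.657) were the others called lower. After PD0332991, TOMM40 (0.492) and TOMM5 (0.651) were lower and TOMM7 (1.55) was higher, beside 15.1% and 16.8% of all genes.

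Of 15 regulators of mitochondrial biogenesis, 4 were lower in CDK4/6 KD and 0 higher, and 5 were lower after PD0332991 and 2 higher, beside 17.4% and 19.4% of all genes in the knockdown and 15.1% and 16.8% after the drug. Against DMSO 6 were lower in CDK4/6 KD, beside 2352 of all 13512 genes tested. Between the controls 3 of the 15 were lower and 1 higher, beside 15.7% and 13.4% of all genes. Lower in CDK4/6 KD against scrambled siRNA were C10orf2 (fold change: 0.471), POLRMT (0.511), PPRC1 and PPARGC1B. PPARGC1B had 15 reads in scrambled siRNA and 6 with CDK4/6 KD, and its interval included 1 (0.120 to 1.03). POLRMT had a fold change of 1.85 between the controls and 0.947 for CDK4/6 KD against DMSO. After PD0332991 GABPB1 (0.409), POLG (0.547) and TFB2M (0.611) were lower along with PPRC1 and TFAM. PPARGC1B (20 reads against 10, interval 0.897 to 4.80, which includes 1) was higher along with PPARGC1A. TFB2M had 12.8 CPM in DMSO, 7.80 in PD0332991, 6.82 in scrambled siRNA and 7.95 with CDK4/6 KD, so that DMSO alone stood apart. Its fold change between the controls was 0.535. PPRC1, a coactivator related to PGC-1 alpha, was lower in both arms, with 34.6 CPM in DMSO, 16.6 in PD0332991, 34.7 in scrambled siRNA and 16.6 with CDK4/6 KD (fold changes: 0.480 in each arm). TFAM, which packages mitochondrial DNA, had a fold change of 0.740 in the knockdown and 0.584 after PD0332991. PPARGC1A, the gene of PGC-1 alpha, had 13.5, 26.6, 6.45 and 7.86 CPM in the same order of libraries (fold change after PD0332991: 1.97, interval 1.58 to 2.47). Of 13 TCA cycle enzymes, CS (0.372) and DLST (0.573) were lower and SUCLA2 (1.63) higher in CDK4/6 KD, shares near or below those of all genes (17.4% and 19.4%), and 0 were called after PD0332991.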
